A study of Rattus norvegicus with 48 samples.

Results

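The genes described here encode the proteins of the cytosolic ribosome, measured as RNA in the left ventricle of male Sprague-Dawley rats. They were taken as every symbol of the form Rpl or Rps followed by a digit, with Rplp0, Rplp1, Rplp2 and Rpsa, for which a probe set of the array names exactly 1 gene, leaving out the Rps6k kinases and symbols with a -ps or -like ending. This gave 73 genes of 14506 named on the array, each followed by its brightest probe set over 48 arrays. They comprise 26 proteins of the small (40S) subunit, 39 of the large (60S) subunit, the 3 proteins of the P stalk, 4 symbols of duplicated genes (Rpl22l1, Rpl36al1, Rpl37l1, Rps4y2) and Rps19bp1, which fits the rule by its letters but encodes a binding partner of Rps19 and no ribosomal protein.

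The platform was the Affymetrix Rat Gene 1.0 ST array, and each array carried the RNA of 3 rats of 1 group in a pool. The 12 groups of 4 arrays combine 3 levels of activity, 2 ages and 2 states. SED rats lived in standard cages without a wheel, PA rats were active 2 times a week, and EX rats moved to a cage with a running wheel on alternate days. Rats were 3 mo or 16 mo old and were sacrificed either at rest or after an acute bout of exercise, which the sample labels call a swim and the design text 30 min of submaximal exercise, and which is called swim here. No group carries a transgene or a drug. P-values measure the spread between pooled arrays, and the sources used here do not say whether any rat contributed to more than 1 pool. Read as totals over both ages, the rats that the study's methods count for SED and EX are fewer than the resting arrays would need with 3 different rats each. If arrays of a group share rats, the p-values are too small.

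Cytosolic ribosomes are built from ribosomal RNA and a near equal amount of each ribosomal protein, and cells make these proteins in step with one another and with growth. Most ribosomal protein mRNAs begin with a C followed by an unbroken run of pyrimidines, the TOP motif, through which their translation follows mTOR signalling and the binding protein LARP1. In the heart, ribosome content and protein synthesis rise with growth and with load, and several ribosomal proteins are known to act outside the ribosome as well, Rpl5 and Rpl11 by holding back Mdm2.

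The starts of these genes are shown because the pyrimidine run at the first base of the transcript is the sequence feature that the family is known for. Of the 73 genes, 62 have an entry in the RefSeq promoter table (build GRCr8), which gives 250 bases before and 50 bases from the annotated start. Each line below holds the last 40 bases before this annotated start and the first 20 bases from it, 5′ to 3′ on the strand of the gene. Capitals mark the longest run of C and T within 20 bases of the start. By the RefSeq bounds of the genes, this start is the outer end of Rpl24, Rps13 and Rpl4. For the other genes printed it lies inside the gene, so the window need not hold the first bases of the transcript. Rps15a, for one, extends to base 181861330, and Rpl6 to base 41012756. The 4 genes with the largest fall at 16 mo (Rps15a, Rpl24, Rps13, Rps19) come first, then the pair that was higher at 16 mo (Rpl5, Rpl4), then genes that fell after the swim at 3 mo (Rpl22, Rplp2, Rps12) and the gene with the largest rise after the swim at 3 mo (Rpl6).
Rps15a (chr1:181860265-181860324, minus strand, 40S subunit): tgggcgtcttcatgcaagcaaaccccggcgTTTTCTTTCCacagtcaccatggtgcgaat
Rpl24 (chr11:58128386-58128445, minus strand, 60S subunit): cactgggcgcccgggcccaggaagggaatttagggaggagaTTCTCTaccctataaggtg
Rps13 (chr1:180009641-180009700, minus strand, 40S subunit): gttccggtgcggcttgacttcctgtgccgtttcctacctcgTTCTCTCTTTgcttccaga
Rps19 (chr1:89608648-89608707, plus strand, 40S subunit): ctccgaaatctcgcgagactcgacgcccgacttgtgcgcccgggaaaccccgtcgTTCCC
Rpl5 (chr14:1995206-1995265, minus strand, 60S subunit): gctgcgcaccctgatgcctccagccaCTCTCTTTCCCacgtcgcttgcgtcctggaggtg
Rpl4 (chr8:73566437-73566496, plus strand, 60S subunit): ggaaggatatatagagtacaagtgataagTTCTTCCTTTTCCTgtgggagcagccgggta
Rpl22 (chr5:168117921-168117980, plus strand, 60S subunit): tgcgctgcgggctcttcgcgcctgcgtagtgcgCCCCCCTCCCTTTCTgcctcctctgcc
Rplp2 (chr1:205975881-205975940, plus strand, P stalk): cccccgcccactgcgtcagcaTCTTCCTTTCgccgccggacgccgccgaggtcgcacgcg
Rps12 (chr1:23500035-23500094, plus strand, 40S subunit): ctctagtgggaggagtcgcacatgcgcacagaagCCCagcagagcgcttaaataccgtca
Rpl6 (chr12:41011671-41011730, minus strand, 60S subunit): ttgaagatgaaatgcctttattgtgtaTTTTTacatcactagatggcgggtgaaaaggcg

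A run of at least 8 pyrimidines lay within 20 bases of the start in 46 of the 62 genes (74.2%), against 15.5% of all 33469 promoters of the table. A C at the annotated start itself with at least 4 more pyrimidines after it was present in 23 genes (37.1%), against 2.63% of all promoters. The letters CTTTCC on the transcribed strand within the same 20 bases were present in 29.0% of these genes and in 1.73% of all promoters, and CTCTTT in 25.8% and 1.61%. Both can overlap each other in a longer run. The run in Rps15a ends just before the annotated start, and Rps19, Rps12 and Rpl6 have no run longer than 5 bases there, which describes these annotated windows and nothing more. In each of these genes the annotated start lies inside the RefSeq bounds of the gene. The genes with a C and 4 pyrimidines at the start had a median log2 change of -0.18 between 3 mo and 16 mo, and the other 39 genes one of -0.13. Their ranges, -0.34 to -0.01 and -0.59 to 0.08, overlapped.

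The values are linear intensities. The median of the mean intensities was 2197 over the 73 genes and 82.0 over all 29157 probe sets, and 61 of the 73 lay in the brightest 10% of probe sets. The spread of an array, as the interquartile range of its log2 intensities, differed between groups. It averaged 3.23 to 3.31 at 3 mo at rest, 3.13 to 3.20 at 3 mo after the swim, 3.19 to 3.24 at 16 mo at rest and 3.28 to 3.35 at 16 mo after the swim. With this range as a covariate, the counts of genes lower at 16 mo given below became 64 over all pairs, 56 at rest and 40 after the swim. All 8 cardiomyocyte markers, among them Myh6 and Tnnt2, were measured, with a summed intensity between 62555 and 67635 on every array. Pearson's r between replicate arrays lay between 0.9887 and 0.9965 (log2 values), and no pair was identical.

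1 array stood apart for these genes. Replicate 3 of EX at 3 mo after the swim had a mean log2 level of 10.93 over the 73 genes, against 10.60 to 10.67 on the other 3 arrays of its group. It was the highest of its group for 58 of the 73 genes and had the lowest array weight of all 48 arrays (0.31). Several comparisons that use this group are also given without this array.

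Taken as a mean over the 73 genes, the log2 level was highest in young rats at rest. The group means were 10.76 ± 0.04 in SED, 10.73 ± 0.02 in PA and 10.74 ± 0.06 in EX at 3 mo at rest (SD, n = 4). After the swim at 3 mo they were 10.58 ± 0.05, 10.67 ± 0.03 and 10.71 ± 0.15. At 16 mo they lay between 10.52 and 10.55 at rest and between 10.51 and 10.56 after the swim. All 12 arrays at 16 mo at rest lay below all 12 arrays at 3 mo at rest on this mean.

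**Figure D1:**
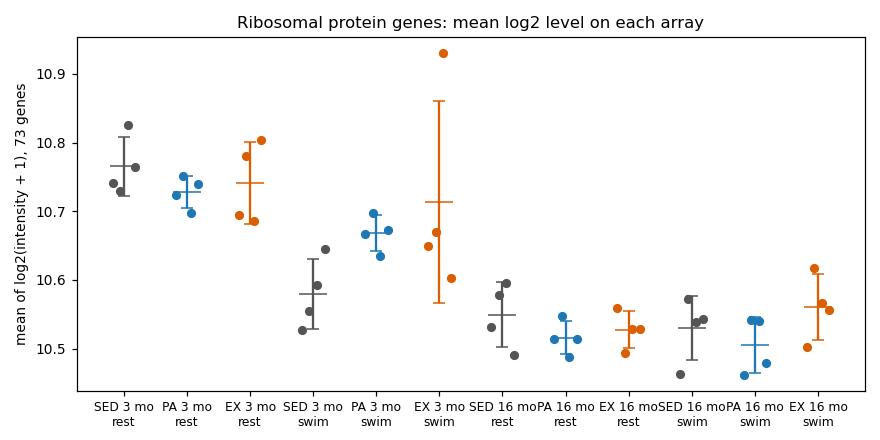
Mean of log2(intensity + 1) over the 73 ribosomal protein genes on each of 48 arrays (points), by group, with the mean and SD of 4 arrays (bar and whiskers). The 3 groups at 3 mo at rest lie between 10.69 and 10.83, the 6 groups at 16 mo between 10.46 and 10.62, and 1 array of EX at 3 mo after the swim stands at 10.93.

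The first comparison asked how age alters these transcripts. Over the 6 matched pairs of groups (SED, PA and EX, at rest and after the swim), 64 of the 73 genes were lower at 16 mo than at 3 mo and 2 were higher (limma fit of all 48 arrays, adjusted p under 0.10 after Benjamini-Hochberg over all probe sets). Over all probe sets, 21.3% were lower and 23.7% higher in the same fit. Of the 2916 brightest probe sets, 912 were lower and 988 higher. The median log2 change was -0.16 over the 73 genes, a fall by 10.5%, against -0.00 over all probe sets and 0.00 over the brightest 10%. The small subunit had 25 of 26 genes lower (median -0.18), the large subunit 32 of 39 lower and 2 higher (median -0.15), and the P stalk 3 of 3 lower. In these bulk samples, fewer cells of a type and less RNA per cell cannot be told apart.

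**Figure D2:**
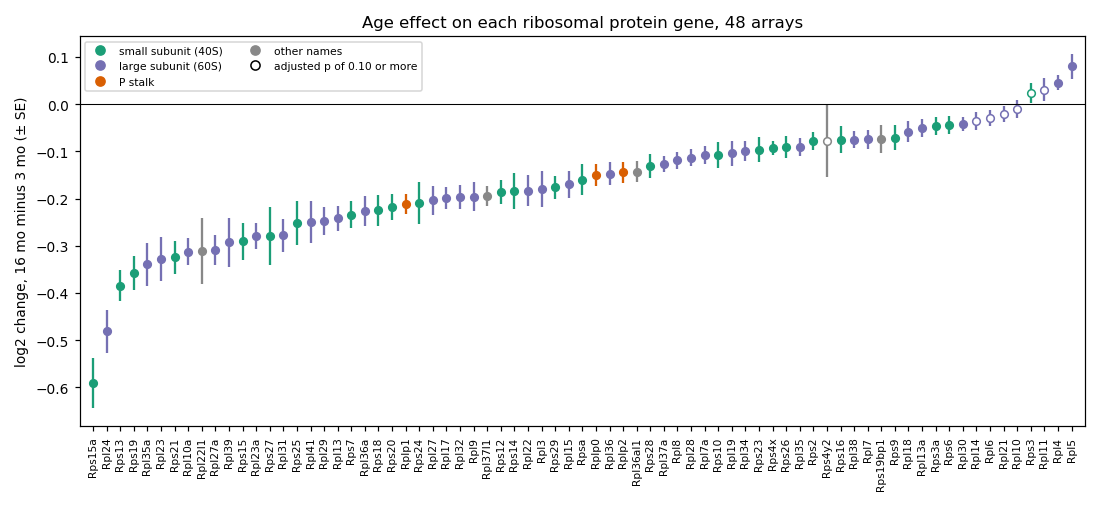
Log2 change from 3 mo to 16 mo for each of the 73 genes (points, with SE), fitted over 48 arrays and sorted by size; colours give the subunit and open points did not pass an adjusted p of 0.10. The changes run from -0.59 for Rps15a to 0.08 for Rpl5, and 64 filled points lie below 0.

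The 4 largest falls were in 3 genes of the small subunit and 1 of the large subunit. Rps15a, a small subunit protein, had intensities of 801, 953.5 and 1060 (lowest, median and highest of 12 arrays) at 3 mo at rest and 525, 631 and 730 at 16 mo at rest. After the swim it had 657, 884 and 1428 at 3 mo and 476, 578.5 and 699 at 16 mo. The resting arrays of the 2 ages did not overlap, and after the swim they did. Rps15a fell by 0.59 ± 0.05 (SE) on the log2 scale, or by 33.6% (adjusted p = 1.39e-11). Rpl24, which forms a bridge to the small subunit, had 560, 599 and 729 at 3 mo at rest and 373, 432 and 471 at 16 mo at rest, again without overlap, and fell by 0.48 ± 0.05 (adjusted p = 7.33e-11). The other probe set of Rpl24 changed by -0.25, so its rank among the 73 genes rests on the probe set chosen. Rps13 had 523, 569 and 610 against 348, 393.5 and 437, and fell by 0.38 ± 0.03 (adjusted p = 3.79e-12), the smallest adjusted p of the 73 genes. Rps19, whose human counterpart is the gene most often mutated in Diamond-Blackfan anaemia, had 546, 610.5 and 668 against 375, 425.5 and 516 and fell by 0.36 ± 0.04 (adjusted p = 2.51e-10). The next in size were Rpl35a (-0.34), Rpl23 (-0.33), Rps21 (-0.33) and Rpl10a (-0.31).

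The P stalk, a pentamer that recruits elongation factors to the ribosome, fell as a whole. Rplp0, its anchor, had 2688, 2976.5 and 3162 at 3 mo at rest and 2248, 2402 and 2677 at 16 mo at rest, and its change over the 6 pairs was -0.15 ± 0.02 (SE). Rplp1 and Rplp2, the acidic proteins that extend from it, changed by -0.21 ± 0.02 and -0.14 ± 0.02. For all 3 the resting arrays at 16 mo lay wholly below those at 3 mo. After the swim the age effect of Rplp0 was -0.02 ± 0.03 (adjusted p = 0.566 in the limma fit) and that of Rplp2 was -0.00 ± 0.03 (adjusted p = 0.956), while Rplp1 kept -0.19 ± 0.03 (adjusted p = 2.27e-06).

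Few genes stood against this direction. Rpl5, which carries 5S ribosomal RNA into the large subunit together with Rpl11, was higher at 16 mo by 0.08 ± 0.03 on the log2 scale (adjusted p = 0.0147 in limma), with 3949, 4358 and 4720 at 16 mo at rest and 3726, 3963 and 4400 at 3 mo at rest, which overlap. This rests on the probe set chosen, since the other 2 probe sets of Rpl5 with values of their own were lower at 16 mo. Rpl11, its partner, changed by 0.03 ± 0.02 (adjusted p = 0.326). Rpl4, which lines the exit tunnel for the growing chain, was higher by 0.05 ± 0.02 (adjusted p = 0.0205). Rpl14, Rpl6, Rpl21, Rpl10, Rps3, Rpl11 and Rps4y2 did not pass the test. Rps6, the substrate of S6 kinase, fell by 3.0% (log2 change -0.04 ± 0.02, adjusted p = 0.0721). Rpsa, the laminin receptor precursor, fell by 10.5% and Rps19bp1 fell by 5.0%.

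The size of the fall differed along the brightness of the probe sets. The 20 genes with a mean intensity under 1000 had a median change of -0.28, with 19 lower. The 25 genes from 1000 to 2500 had -0.13, with 24 lower. The 28 genes over 2500 had -0.09, with 21 lower and 2 higher. Across the 73 genes, which are not independent replicates, Pearson's r between mean log2 intensity and log2 change was 0.47 and Spearman's rho was 0.54, while r over all named genes was 0.08. Brightness of a probe set depends on its probes and is not a measure of the number of transcripts, and whether bright probe sets understate a change was not tested.

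The fall was present at each level of activity at rest. In SED, 40 of 73 genes were lower at 16 mo (8.15% of all probe sets), in PA 40 (8.16%) and in EX 44 (6.58%). Bright probe sets were called lower more often than all probe sets. Of the 2916 brightest probe sets, which hold 61 of the 73 genes, 629 were lower in SED, 572 in PA and 525 in EX. The SAM test rebuilt after the study's methods called 39 genes lower in SED (5.94% of all probe sets) and 32 in EX (4.47%). Averaged over SED, PA and EX at rest, 57 genes were lower (16.2% of all probe sets) and 3 higher (20.7%), with a median of -0.20. In 23 genes all 12 resting arrays at 16 mo lay below all 12 at 3 mo, which holds for 1.85% of all probe sets. These were the 3 P stalk genes with Rps12, Rps13, Rps14, Rps15a, Rps16, Rps19, Rps20, Rps21, Rps29, Rpl10a, Rpl13, Rpl22, Rpl23a, Rpl24, Rpl27, Rpl27a, Rpl28, Rpl31, Rpl35a and Rpl37l1. Over all 24 arrays of each age no gene was free of overlap (0.0446% of all probe sets).

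After the swim the age effect was smaller and less even. It was called lower in 9 genes in SED (12.5% of all probe sets), 37 in PA (8.64%) and 34 in EX (14.8%). Without replicate 3 of EX at 3 mo after the swim, the counts in SED and EX became 16 and 18. With all arrays kept, 275 of the 2916 brightest probe sets were lower in SED, 475 in PA and 420 in EX. Averaged over the 3 levels of activity, 48 genes were lower (29.0%) and 2 higher (25.2%), with a median of -0.11, and 43 were lower without that array. In 34 of the 73 genes (46.6%) the group mean was lower at 16 mo in each of the 6 pairs, which share no array, against 7.98% of all probe sets (31 genes and 7.57% without that array), and in 1 gene it was higher in each (11.8% of all probe sets). Rps15a, Rpl24, Rpl23a, Rpl27a and Rpl37l1 were called lower in all 6 pairs. Rpl27a, for one, had 1240, 1231, 1414 and 1265 in SED at 3 mo at rest and 1047, 1108, 1051 and 888 in SED at 16 mo at rest. After the swim it had 1130, 1087, 1187 and 1182 in SED at 3 mo and 939, 1022, 1003 and 980 in SED at 16 mo. The 4 arrays of the 2 ages do not overlap in either state.

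**Figure D3:**
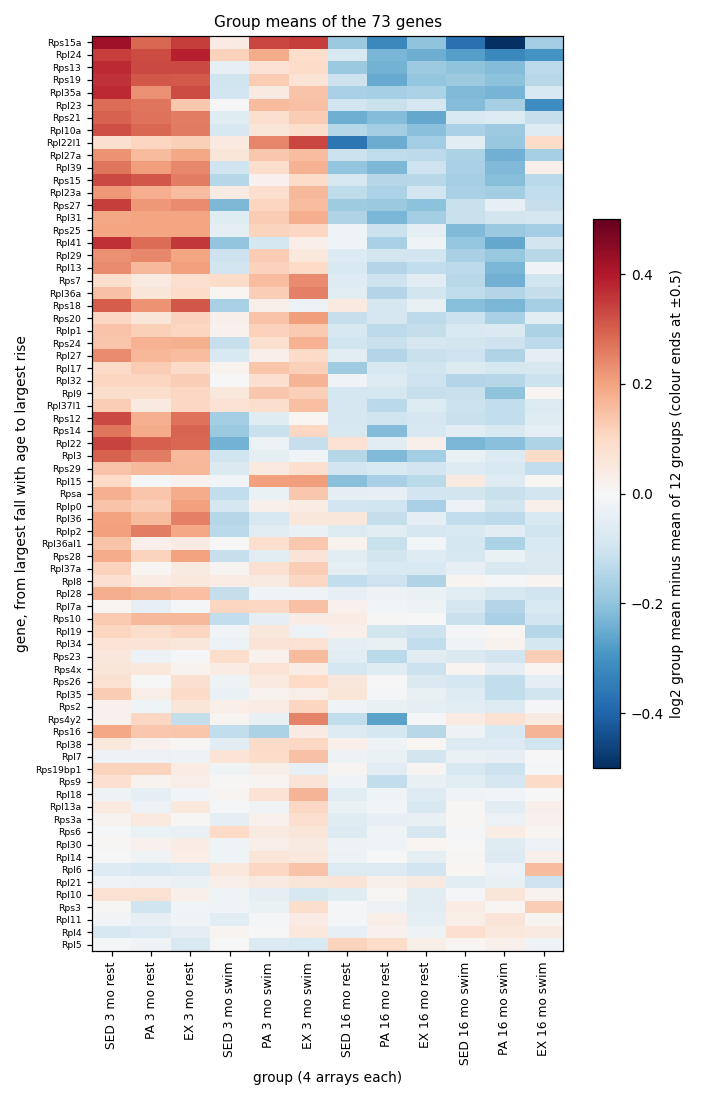
Mean log2 level of each of the 73 genes in each of the 12 groups, as the difference from the mean of the 12 groups, with genes ordered from the largest fall with age (top) to the largest rise (bottom). The 3 columns of 3 mo at rest are the reddest for most of the upper rows, where the 6 columns of 16 mo are mostly blue.

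The swim effect was asked next, as swim minus rest. Over the 6 pairs of groups, 27 genes were lower after the swim (17.0% of all probe sets) and 11 higher (20.6%). At 3 mo, averaged over SED, PA and EX, 34 genes were lower (16.6%) and 10 higher (22.0%), with a median of -0.08 against 0.04 over all probe sets. At 16 mo, 12 genes were lower (23.6%) and 13 higher (22.4%), with a median of 0.00. The difference of the swim effect between 16 mo and 3 mo, as an interaction in the same fit, was called higher in 28 genes (19.6%) and lower in 5 (26.1%), and its median was 0.06 against -0.03 over all probe sets and 0.04 over the brightest 10%. Without replicate 3 of EX at 3 mo after the swim, the counts were 35 lower and 10 higher over the 6 pairs, 39 lower and 8 higher at 3 mo, and 32 higher and 5 lower for the difference between the ages. The counts depend on the scaling. Of all calls, 56.9% were higher at 3 mo and 48.6% at 16 mo. With each array centred on its median this became 34% and 67.7%, and the genes here 38 lower and 3 higher at 3 mo and 4 lower and 25 higher at 16 mo. With centring on the brightest 10%, added after seeing the data, 37.4% of all calls at 16 mo were higher, and 20 of the genes here were lower and 8 higher. The resting arrays at 3 mo enter both the age effect at rest and the swim effect at 3 mo, so these 2 sets of values are not independent.

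**Figure D4:**
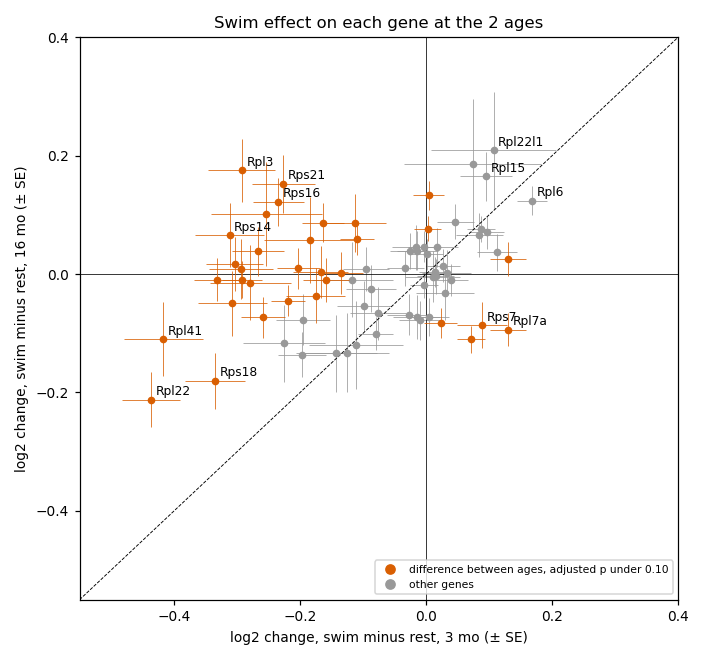
Log2 change from rest to swim at 3 mo (horizontal axis) and at 16 mo (vertical axis) for each of the 73 genes, with SE; the broken line marks equal change and coloured points differ between the ages at an adjusted p under 0.10. Rpl22 and Rpl41 lie farthest to the left, at -0.44 and -0.42 on the horizontal axis, and Rpl7a, at 0.13 and -0.09, is below the line.

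Large falls at 3 mo were found in both subunits. Rpl22, a large subunit protein that also binds RNA outside the ribosome, had 754, 834 and 912 at rest and 472, 629 and 784 after the swim, and fell by 0.44 ± 0.05 (adjusted p = 6.59e-10). At 16 mo it had 624, 685.5 and 732 at rest and 549, 582 and 658 after the swim, and fell by 0.21 ± 0.05 (adjusted p = 0.000489). The fall at 3 mo was larger by 0.22 ± 0.07 (adjusted p = 0.00681). Rpl41, the smallest ribosomal protein, had 2462, 2788 and 3100 at rest at 3 mo and 1695, 2055 and 3196 after the swim, the highest value being that of the array that stands apart, and fell by 0.42 ± 0.06 (adjusted p = 1.15e-06). Rps12, a small subunit protein, fell by 0.33 ± 0.04 at 3 mo and Rps18, of the head of the small subunit, fell by 0.33 ± 0.05. At 16 mo Rps12 changed by -0.01 ± 0.04 (adjusted p = 0.852), while Rps18 fell by 0.18 ± 0.05 (adjusted p = 0.003). Of the 73 genes, Rpl28 and Rplp2 had all 12 swim arrays at 3 mo below all 12 resting ones (3.21% of all probe sets). Without replicate 3 of EX this held for 12 genes (3.78%), among them Rpl22, Rpl41, Rps12 and Rps18. For Rplp2 these were 3023 to 3669 against 3971 to 4521. At 16 mo 0 of the 73 genes were free of overlap in this way (0.141% of all probe sets).

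A smaller set rose after the swim. Rpl6, a large subunit protein, had 2244, 2388.5 and 2504 at rest at 3 mo and 2568, 2685.5 and 2831 after the swim, and rose by 0.17 ± 0.02 (adjusted p = 4.07e-07). At 16 mo it rose by 0.12 ± 0.02 (adjusted p = 0.000121). Rps6 rose by 0.10 ± 0.03 at 3 mo and by 0.07 ± 0.03 at 16 mo (adjusted p = 0.00623 and 0.0402), and Rpl4 by 0.09 ± 0.02 and 0.08 ± 0.02. Rpl7a and Rpl7, both of the large subunit, rose by 0.13 ± 0.03 each at 3 mo. Rpl7a then fell by 0.09 ± 0.03 at 16 mo (adjusted p = 0.00811), and the difference between the ages was -0.22 ± 0.04 (adjusted p = 3.31e-05).

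Several genes moved one way at 3 mo and the other way at 16 mo. Rpl3, which lies at the peptidyl transferase centre, had 395, 464.5 and 509 at rest and 328, 377 and 429 after the swim at 3 mo. At 16 mo it had 294, 341.5 and 417 at rest and 330, 385.5 and 435 after the swim. The swim effect was -0.29 ± 0.05 at 3 mo and 0.17 ± 0.05 at 16 mo, and the difference was 0.47 ± 0.08 (adjusted p = 8.05e-06), the largest of the 73 genes. Rps21 (-0.23 and 0.15) and Rps16 (-0.23 and 0.12) also fell at 3 mo and rose at 16 mo. Rps14 fell by 0.31 at 3 mo and had 0.07 at 16 mo (adjusted p = 0.352). In the opposite direction, Rpl21 rose by 0.07 at 3 mo and fell by 0.11 at 16 mo, and Rps7 rose by 0.09 and fell by 0.09. The rise of Rps7 at 3 mo was called in 1 of its 3 probe sets. Without replicate 3 of EX at 3 mo after the swim it was 0.05 (adjusted p = 0.207 in limma). Rpl15 rose at both ages, by 0.10 and 0.16, and Rps10 fell at both, by 0.20 and 0.14.

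By level of activity, the swim effect at 3 mo was called most often in SED, with 33 genes, of which 32 were lower and 1 higher (21.5% of all probe sets called either way). In PA 18 genes were called, 15 lower and 3 higher (13.8%), and in EX 18, 11 lower and 7 higher (13.9%). Without replicate 3 of EX at 3 mo after the swim the counts of lower and higher in EX became 21 and 4, and without replicate 4 their sum became 11. Of the 2916 probe sets in the brightest 10%, 773 were lower and 385 higher in SED at 3 mo. In PA 550 of them were lower and 338 higher, and in EX 476 and 425. With all arrays kept, the counts of the 73 genes lower in PA and in EX lay near these shares of the brightest 10%. At 16 mo 10 genes were called in SED, 6 lower and 4 higher (16.9%), 0 in PA (6.77%), and 10 in EX, 2 lower and 8 higher (20.9%). The count in SED at 16 mo lay between 4 and 12 in all as each array was left out, and was 6 or fewer without any 1 of resting replicates 1 to 3 or swim replicates 2 to 4. In PA at 16 mo 6 genes had an unadjusted p under 0.05 in limma, and the count became 2 without replicate 3 of EX at 3 mo after the swim and 1 without swim replicate 1, 3 or 4 of PA. The difference of the swim effect between EX and SED at 3 mo was called in 0 genes (0% of all probe sets), with 16 genes at an unadjusted p under 0.05, a median of 0.14 and 68 of 73 above 0. Without replicate 3 of EX after the swim this became 5 genes, a median of 0.08 and 65 above 0. Matching shares over all probe sets are not given here, so these unadjusted counts are not read as particular to the 73 genes.

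The comparison of EX with SED asked for the effect of the wheel at a given age. The count of genes called at an adjusted p under 0.10 was 0 for EX minus SED over the 4 pairs of groups (0.00686% of all probe sets called), with 3 genes at an unadjusted p under 0.05 in limma. It was also 0 at 3 mo at rest (0%), 16 mo at rest (0.00343%), 3 mo after the swim (0.00686%) and 16 mo after the swim (0%), with 0, 1, 38 and 5 genes at an unadjusted p under 0.05. At 3 mo after the swim the median of EX minus SED was 0.13 and 67 of 73 genes were above 0. Without replicate 3 of EX, 7 genes had an unadjusted p under 0.05, the median was 0.06 and 64 were above 0. The shares of all probe sets at an unadjusted p under 0.05 or above 0 are not given here. These counts are therefore not read as particular to the 73 genes. PA minus SED was called in 0 genes over the 4 pairs and at each age and state (0% each), with 2 genes at an unadjusted p under 0.05 in limma over the 4 pairs. It had 4 and 2 such genes at rest at 3 mo and 16 mo, and 12 and 0 after the swim, where the 12 became 21 without replicate 3 of EX. The age effect at rest differed between EX and SED in 0 genes (0%), also at an unadjusted p under 0.05 in limma. A p that misses the threshold does not show that the groups were alike, and the medians of EX minus SED at rest were -0.02 at both ages.

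Of the duplicated genes, Rpl22l1 is the paralog of Rpl22 and can take its place in the ribosome. Rpl22l1 had 258, 322 and 401 at 3 mo at rest and 203, 248.5 and 315 at 16 mo at rest, and fell by 0.31 ± 0.07 between the ages over the 6 pairs (adjusted p = 0.000445). After the swim it had 265, 334.5 and 615 at 3 mo and 210, 295 and 385 at 16 mo. The array that stands apart gave the 615, and its swim effect was 0.11 ± 0.10 at 3 mo (adjusted p = 0.431), or 0.03 ± 0.09 without that array (adjusted p = 0.84), and 0.21 ± 0.10 at 16 mo (adjusted p = 0.0912). The log2 difference between Rpl22l1 and Rpl22 within each array changed by 0.48 from rest to swim, from -1.43 ± 0.21 to -0.94 ± 0.21 (SD, n = 24), and was higher after the swim in 6 of 6 pairs of groups (permutation test within activity and age, 100000 resamples, two-sided, p = 1e-05, the smallest these resamples can give, adjusted p = 6e-05 over 6 tests). Such a difference shows unequal change of the 2 genes and not their relative amounts. From 3 mo to 16 mo it changed by -0.13 (permutation test, p = 0.0281, adjusted p = 0.0563).

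**Figure D5:**
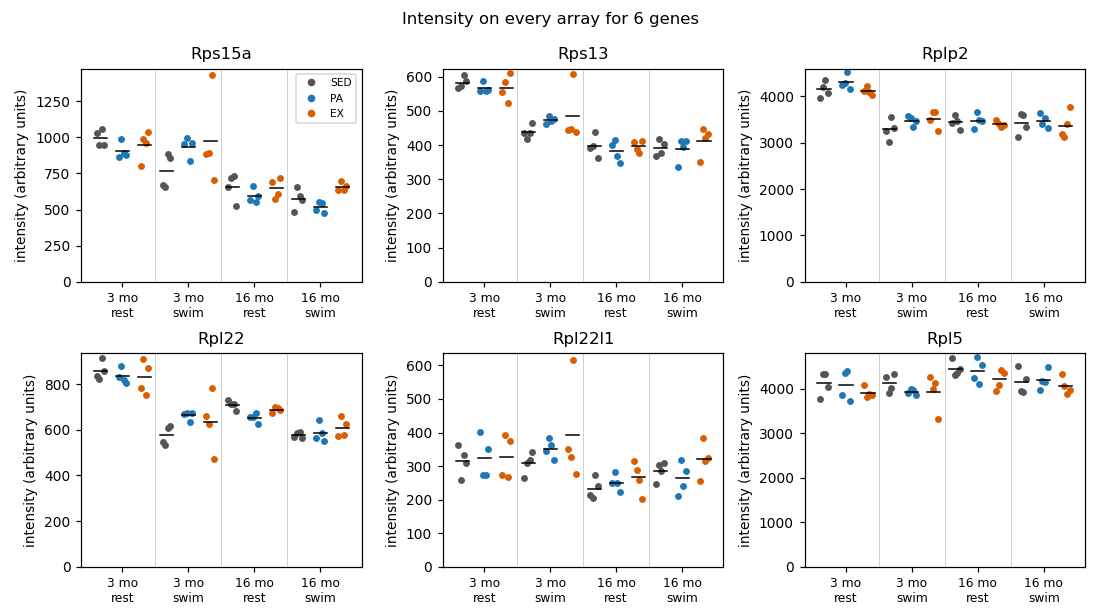
Intensity of 6 genes on each of 48 arrays (points, linear axis from 0), with the mean of each group of 4 (black bar); colours give SED, PA and EX. Rps13 and Rplp2 have their highest group means at 3 mo at rest, Rps15a is lower at 16 mo, Rpl22 is lower after the swim at both ages, Rpl22l1 has 1 array at 615 in EX at 3 mo after the swim, and Rpl5 overlaps throughout.

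2 further pairs were added after the data were seen. The difference between Rpl36al1 and Rpl36a changed by 0.08 from 3 mo to 16 mo, in the same direction in 6 of 6 pairs (permutation test, adjusted p = 0.0218), and passed 0.05 no longer without replicate 3 of EX at 3 mo after the swim (0.07) or replicate 4 of EX at 16 mo after the swim (0.07). Rpl36al1 fell by 9.4% and Rpl36a fell by 14.5% between the ages. The difference between Rps4y2 and Rps4x changed by 0.01 with age and 0.09 with the swim (permutation test, adjusted p = 0.852 and 0.35). Rps4y2 had the largest SD within groups of the 73 genes on the log2 scale (0.28), and Rps4x the smallest (0.04). Rpl37l1 fell by 12.6% between the ages.

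Ribosomal protein genes are often used as references in PCR, and 5 of 6 such genes listed here were lower at 16 mo and 1 higher. Over all probe sets 21.3% were lower and 23.7% higher. Rplp0 (-0.15), Rpl13a (-0.05), Rpl27 (-0.20), Rpl32 (-0.20) and Rps18 (-0.23) fell and Rpl4 rose (0.05). At 3 mo after the swim Rplp0 (-0.16), Rpl27 (-0.17) and Rps18 (-0.33) fell and Rpl4 rose (0.09), and the difference for Rpl13a was 0.00 ± 0.03 (adjusted p = 0.986). Rpl32 was not called for this effect, for which 16.6% of all probe sets were lower and 22.0% higher. The log2 changes are on the scale of this array and its normalization.

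Other genes of protein synthesis were followed as lists written from general knowledge. Of 68 mitochondrial ribosomal proteins, 34 were lower at 16 mo and 5 higher (median -0.06), among them Mrpl53 (-0.25 ± 0.03, SE) and Mrpl55 (-0.28 ± 0.03). Of 17 translation factors and other TOP mRNAs, 4 were lower and 7 higher (median 0.01). Rack1, a small subunit protein by position whose symbol is outside the rule, had -0.16 ± 0.02, and Eef2, the translocation factor, was higher by 0.11 ± 0.02. Of 34 ribosome biogenesis and RNA polymerase I genes, 9 were lower and 10 higher with age (median 0.01), while after the swim over the 6 pairs 19 were higher and 2 lower (median 0.09), with Nop58 (0.25 ± 0.03) and Nip7 (0.29 ± 0.04) higher. Of 16 genes in the control of ribosomal protein synthesis, 5 were lower and 9 higher at 16 mo, with the mTOR inhibitor Tsc2 (0.25 ± 0.02) and the S6 kinase gene Rps6kb1 (0.23 ± 0.02) higher. After the swim 6 of these 16 genes were higher and 9 lower (median -0.10). Among them Myc, a driver of ribosome production (0.53 ± 0.05), and Ddit4, an inhibitor of mTOR (0.67 ± 0.06), were higher, and Eif4ebp2, a repressor of cap-dependent translation (-0.46 ± 0.03), was lower. The counts for each of these lists are to be read against 21.3% lower and 23.7% higher for age and 17.0% and 20.6% for the swim over all probe sets.

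Markers of cell types were followed as well. Of 8 fibroblast markers, 6 were lower at 16 mo and 0 higher, and their summed intensity was 10864 to 13302 at 3 mo at rest and 7465 to 12251 at 16 mo at rest. Of 3 erythroid markers, 3 were lower, with sums of 4967 to 8871 and 4497 to 5975. Of 8 cardiomyocyte markers, 4 were lower and 1 higher with a median of -0.01, and 2 of 6 endothelial markers were higher and 1 lower. All 8 macrophage markers were higher after the swim at 16 mo, with sums of 1797 to 2750 at rest and 2728 to 3560 after it, while 3 were higher and 2 lower at 3 mo. Over all probe sets 21.3% were lower and 23.7% higher with age. For the swim the shares were 23.6% lower and 22.4% higher at 16 mo, and 16.6% and 22.0% at 3 mo. Small counts in these short lists can lie near such shares. In these lists 0 genes had a mean intensity under 32. The part of these cells in the changes of the ribosomal protein genes was not tested.

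The other probe sets of the same genes can be set beside the ones chosen. Of 253 probe sets with values of their own that name these 73 genes, 221 were lower at 16 mo and 3 higher. Over all probe sets 21.3% were lower and 23.7% higher. In 46 of 55 genes with more than 1 probe set, all were lower. In 20 genes the probe sets differed by more than 2-fold in mean intensity, and Rpl21 alone had 21 probe sets. The rat genome holds many processed copies of ribosomal protein genes, and whether a probe set also takes up such copies cannot be told from these values. At 3 mo after the swim 115 of the 253 were lower (16.6% of all probe sets) and 43 higher (22.0%). Of these 43, 20 name Rpl21 and 10 name Rpl7a. At 16 mo 70 were lower (23.6%) and 20 higher (22.4%). Of these 70, 21 name Rpl21 and 12 name Rpl7a, both of which were lower by the probe set chosen.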

How the data were processed

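RNA from the left ventricle was measured on 48 arrays, 4 for each of 12 groups, with the RNA of 3 rats pooled on each. The authors made the deposited values by RMA with the affy package: an intensity for each of 29157 probe sets, on a linear scale and in whole numbers. Tool versions and the set of arrays normalized at once are not stated in the sources used here. The number of arrays limits the precision.

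Members and gene lists were chosen with earlier results of these data known. Genes were named from a platform table, and 71 of the 73 matched RefSeq by Entrez number. Intensities were taken as log2(intensity + 1), so that changes of dim genes are understated, and a model of 12 group means was fitted by limma 3.58.1 in R 4.3.3 (two-sided, empirical Bayes). A probe set was called at an adjusted p under 0.10 after Benjamini-Hochberg over all probe sets. Averages within an age or a state, the interaction of swim with EX at 3 mo, 2 pairs of paralogs, signs and counts of groups without overlap without the array of lowest weight, and centring on the brightest 10% of probe sets were added after seeing the data. In simulated data the age effect over 6 pairs was recovered for 52% of 50 probe sets changed 1.1-fold and 98% of those changed 1.25-fold. There were 14 false calls of 29157 probe sets. Each size of change was given to only 50 probe sets, with independent noise. In the data 6210 probe sets were called lower and 6905 higher for this effect, which makes the Benjamini-Hochberg threshold less strict. The simulated rates therefore need not hold for the data. Paralogs were compared by a permutation test in Python within the other 2 factors, with 20000 resamples where an array was left out, and called at an adjusted p under 0.05.

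Genes named are the paralogs and their parents, the P stalk, Rps6, Rpsa, Rpl5, Rpl11, Rps19, the PCR references, called genes with the largest changes (8 each way for the age and swim effects over 6 pairs, 4 elsewhere), the extremes of level and spread, and from other lists up to 4 called genes by adjusted p. The text shows part of these. Rps20, Rps29, Rpl13, Rpl23a and others in the list of genes without overlap were named because that list is given whole.

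Replicate numbers are shared by all groups, but deviations of arrays with the same number correlated at a mean of 0.006 (from -0.41 to 0.39), so they were not taken as pairs. The alternatives were an adjusted p under 0.05, the number as a block, quantile normalization, median centring, the interquartile range as a covariate, a pseudocount of 16, leaving out probe sets with a mean log2 under 5, leaving out those that name no single gene, the trend option of limma, array weights, the mean of all probe sets of a gene, the arrays of the groups compared alone, SAM, and each of 48 arrays left out.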

Additional observations from a re-analysis of the deposited data

Results flagged for a closer look

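Among 17 genes and the mean over the 73 genes, 216 sets of 4 arrays were looked at, and in 11 of them 1 array lay far from the other 3. Chance alone puts about 1 in 20 sets there. In EX at 3 mo after the swim these were Rps13 (607), Rplp1 (5884) and Rpl41 (3196), all on replicate 3. In PA at 3 mo after the swim they were Rpl4 (3611), Rps6 (4270) and Rpl22 (633). The others were Rps13 in PA at 3 mo at rest (586), Rpl24 in SED at 3 mo at rest (729), Rpl6 in SED at 3 mo after the swim (2690), Rpl24 in PA at 16 mo after the swim (367) and Rps12 in SED at 16 mo after the swim (1091). All values are intensities.

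The swim effect differed between the ages by a test of the difference itself, taken as the value at 16 mo minus that at 3 mo. It was higher in 28 genes (19.6% of all probe sets) and lower in 5 (26.1%), so many genes outside this family were called as well. On the log2 scale this difference was 0.47 for Rpl3, 0.32 for Rps13 and Rps12, 0.31 for Rpl41, 0.30 for Rps19, 0.28 for Rplp2, 0.25 for Rplp0 and 0.22 for Rpl22.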

How the results depend on the processing

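The count of genes lower at 16 mo over the 6 pairs lay between 58 and 64 under the alternatives of scaling, and between 63 and 65 as each of 48 arrays was left out. The 2 genes higher became 1 with the mean of all probe sets of a gene, where Rpl5 turned to -0.0385. The count after the swim (48 lower) became 28 with median centring. At rest in SED 1 gene was higher with centring on the brightest 10% of probe sets (bright centring). In SED after the swim (9 lower) the count was 16 with quantile normalization, 4 with median centring, 2 with the interquartile range as a covariate and 15 with bright centring. In PA after the swim (37) it was 24 with median centring. In EX after the swim (34) it was 16 with median centring, 22 with array weights and 1 with the 8 arrays of those groups alone. With the replicate block the count over 6 pairs stayed at 64, SED at rest had 39 and PA after the swim 36, and no count moved by over 1.5 times.

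For the swim at 3 mo, the 10 genes higher became 3 with median centring. In SED (33 either way) the count was 51 with array weights, and in EX (18) it was 11 at an adjusted p under 0.05 and 1 with 8 arrays. At 16 mo, the 12 lower became 7 at an adjusted p under 0.05, 19 with quantile normalization, 4 with median centring and 20 with bright centring. The 13 higher became 25 with median centring, 7 with the interquartile range, 8 with the mean of all probe sets and 8 with bright centring. By activity at 16 mo, SED (10) had 1 with the interquartile range and 1 with 8 arrays, PA (0) had 1 with a pseudocount of 16, a mean log2 of at least 5, the trend option or bright centring, and EX (10) had 1 with 8 arrays. For the difference between the ages, the 5 lower became 10 with quantile normalization, 2 with median centring, 2 with the interquartile range and 10 with bright centring, and the 28 higher became 45 with median centring and 14 with the interquartile range. The cause was not tested, other than that 8 arrays leave fewer samples.

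With each array left out, the count lower with age was 6 to 16 in SED after the swim and 18 to 44 in EX after the swim, with 16 and 18 reached without replicate 3 of EX at 3 mo after the swim. The count either way for the swim was 11 to 25 in EX at 3 mo, 4 to 12 in SED at 16 mo and 0 to 2 in PA at 16 mo. The age change of Rpl22l1 against Rpl22 was -0.1451 to -0.1063, with 18 of 48 fits under an adjusted p of 0.05, and that of Rpl36al1 against Rpl36a was 0.0677 to 0.0958. With 4 pooled arrays a group, a 1.1-fold change in a single pair of groups was recovered for 2% of simulated probe sets in SED at rest. Far fewer probe sets were changed in the simulation than were called in the data, so this rate need not hold for the data.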
